A study of Drosophila melanogaster with 18 samples.

Results

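Aldh-III, T3dh, Fdh and Sodh1 encode dehydrogenases that oxidise aldehydes, alcohols or polyols. They were chosen as the probes whose only gene symbol in the platform annotation is one of these 4 names, because ripe banana holds ethanol, sugars and their oxidation products. The rule found 1 probe for each gene, 4 genes of 4574 with a probe of their own, and all 4 had a value in each of the 18 columns of the table and entered the tests. In the annotation table and the Release 6 gene table they are CG11140 (Aldh-III), CG3425 (T3dh), CG6598 (Fdh) and CG1982 (Sodh1).

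RNA of Drosophila melanogaster switched to banana was compared with RNA of the cornmeal control on 2-colour spotted arrays. There were 6 slides with 3 sets of repeat spots each. The slides formed 3 dye-flip pairs of 1 slide with banana RNA in channel 1 and 1 slide with cornmeal RNA in channel 1, namely slides 2 and 3 (pair 1), slides 30 and 29 (pair 2) and slides 28 and 25 (pair 3). The labels state no genotype, age, stage, sex, tissue or time on the diets, and they leave unsaid whether each pair had its own culture. The p-values below therefore rest on differences among 3 pairs that may be technical.

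Fermenting fruit exposes flies to ethanol, which alcohol dehydrogenase oxidises to acetaldehyde and aldehyde dehydrogenase to acetate, a carbon source that is also less toxic than the aldehyde. Aldehyde dehydrogenases as a family also clear aldehydes that arise from lipids and amino acids. In the polyol pathway glucose is reduced to sorbitol, and sorbitol dehydrogenase then oxidises sorbitol to fructose.

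The sources used here do not state whether a ratio is channel 1 over channel 2 or the reverse. Slides with cornmeal RNA in channel 1 were turned in sign, so that all ratios read as on slides whose channel 1 held banana RNA. A positive value then stands for more transcript on banana only if channel 1 was the numerator, and for more transcript on cornmeal otherwise. Signs are given without naming a higher diet. Ratios are given on a log2 scale, a base inferred from the range of the values. The 72 spot values of the 4 genes lay between -1.74 and 1.09 as deposited, while the whole table ran from -16.02 to 13.21. Pair 3 had the opposite sign to the other pairs in 2 of the 4 cuticle marker genes tested. TwdlF had 5.78, 2.44 and -4.89 in pairs 1, 2 and 3, and Osi14 had 5.25, 2.13 and -2.41 (limma F test between pairs, adjusted p = 0.0381 for each). Of all rows, 0.106% passed this test, which does not say which pair differs. The marker genes were listed with earlier results of these data known, so these p-values are no independent evidence on the pairs. Cpr72Ea (0.71, 0.65 and 0.60) and Cpr72Ec (-0.10, -0.34 and -0.26) kept their sign. Values without each pair are therefore given for the 4 genes.

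Aldh-III had a positive ratio on every slide, with a mean 1.49-fold difference that did not pass after adjustment. T3dh was away from 0 mainly in pair 3, Sodh1 mainly in pair 2, and Fdh and Sodh1 took opposite signs on the slides of pair 3. With limma, 0 of the 4 genes passed an adjusted p of 0.05 for the diet ratio, as did 0 of the 4723 rows tested (0%). At an unadjusted p under 0.05, 1 of the 4 genes was called, Aldh-III with a positive ratio, where 8.05% of all rows were called in either direction and 4.40% with a positive ratio. The 4 mean ratios had a median of 0.20, against 0.00031 for all rows.

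Aldh-III encodes an aldehyde dehydrogenase of type III, a class whose mammalian members oxidise fatty and other lipid-derived aldehydes. Its turned log2 ratios were 0.44 on slide 2 and 0.34 on slide 3, 1.01 on slide 30 and 0.54 on slide 29, and 0.71 on slide 28 and 0.41 on slide 25. All 6 were above 0, which held for 3.96% of all rows, and the slide with banana RNA in channel 1 had the higher value in each pair. All 18 spots were also above 0 after centring of their columns, from 0.23 to 1.13 with a median of 0.49. Of the 3911 probes with 18 values, 1.07% had only positive spots.

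The pair ratios of Aldh-III were 0.39, 0.78 and 0.56. The mean was 0.58 ± 0.193 (SD, n = 3), a 1.49-fold difference, with a 95% limma interval of 0.24 to 0.91, or 1.18-fold to 1.88-fold, not adjusted for the number of rows. By p-value it stood at place 82 of 4723 rows (limma, unadjusted p = 0.00821, adjusted p = 0.459). In size its mean ratio lay at percentile 93.7 of all rows, and its SD between pairs at percentile 43.2. Its pair ratio lay at percentile 86.7 of all rows in pair 1, 95.9 in pair 2 and 95.2 in pair 3. It was thus among the higher rows in each pair. Slide values ranged from percentile 78.2 on slide 3 to percentile 96.8 on slide 30. A positive ratio in all 3 pairs was found for 15.3% of all rows. The mean was 0.67 without pair 1, 0.48 without pair 2 and 0.58 without pair 3, and without pair 2 the unadjusted call was lost (limma unadjusted p = 0.0548).

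T3dh encodes an iron-containing alcohol dehydrogenase of type III, whose human counterpart is a hydroxyacid-oxoacid transhydrogenase. Its turned ratios were 0.0046 on slide 2 and -0.078 on slide 3, -0.071 on slide 30 and 0.28 on slide 29, and 0.63 on slide 28 and 0.57 on slide 25. Only in pair 3 were both slides above 0, with all 6 of its spots between 0.53 and 0.71. In pair 2 the spots were -0.55, 0.14 and 0.21 on slide 30 and lay between 0.15 and 0.42 on slide 29. The negative value of slide 30 thus came from 1 spot. The pair ratios were -0.037, 0.11 and 0.60, and they lay at percentiles 46.2, 64 and 95.8 of all rows in their pairs.

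The mean ratio of T3dh was 0.22 ± 0.334 (SD, n = 3), with a 95% limma interval of -0.23 to 0.67, and it did not pass (limma adjusted p = 0.78). The spread between pairs was thus larger than the mean. The mean was 0.35 without pair 1, 0.28 without pair 2 and 0.034 without pair 3. The largest and smallest pair ratio of T3dh were 0.64 apart, at percentile 70.8 of all rows.

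Fdh encodes the glutathione-dependent formaldehyde dehydrogenase, an alcohol dehydrogenase of class III that also breaks down S-nitrosoglutathione. Its turned ratios were 0.023 on slide 2 and -0.24 on slide 3, -0.18 on slide 30 and 0.75 on slide 29, and -0.43 on slide 28 and 1.15 on slide 25. In pairs 2 and 3 the slide with cornmeal RNA in channel 1 was positive and its partner negative. The spot sets of pair 3 agreed closely within a slide, from -0.45 to -0.41 on slide 28 and from 1.06 to 1.23 on slide 25. Those of pair 2 lay further apart, from -0.52 to 0.069 on slide 30 and from 0.34 to 1.19 on slide 29. The gap between slides 28 and 25 was 1.57, at percentile 94.2 of the gaps of all rows in pair 3, whose median was 0.488.

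The pair ratios of Fdh were -0.11, 0.29 and 0.36, with a mean of 0.18 ± 0.251 (SD, n = 3) and a 95% limma interval of -0.20 to 0.56 (limma adjusted p = 0.787). The mean was 0.32 without pair 1, 0.13 without pair 2 and 0.091 without pair 3. Positive and negative values were equally frequent over slides, with 3 of each. Over spots, 8 of 18 were positive and 10 negative, and their median was -0.061, so that the median spot and the mean of pairs differed in sign.

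Sodh1 encodes a sorbitol dehydrogenase, the enzyme that turns sorbitol into fructose. Its turned ratios were -0.036 on slide 2 and 0.004 on slide 3, -0.69 on slide 30 and -0.26 on slide 29, and -0.66 on slide 28 and 0.63 on slide 25. Pair 1 lay at 0 on both slides, pair 2 was negative on both, with its 6 spots from -0.93 to -0.21, and the slides of pair 3 had opposite signs and nearly equal size. The pair ratios were -0.016, -0.48 and -0.011. Sodh1 was therefore negative in all 3 pairs, as were 15.2% of all rows, but only pair 2 was away from 0, at percentile 9.04 of all rows.

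The mean ratio of Sodh1 was -0.17 ± 0.268 (SD, n = 3), with a 95% limma interval of -0.56 to 0.22 (limma adjusted p = 0.796). The mean was -0.24 without pair 1, -0.014 without pair 2 and -0.25 without pair 3. The limma intervals of all 4 genes lay within 1 of 0 on the log2 scale, that is, inside a 2-fold difference in either direction, if the values are log2 and before any adjustment for the number of rows.

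**Figure D1:**
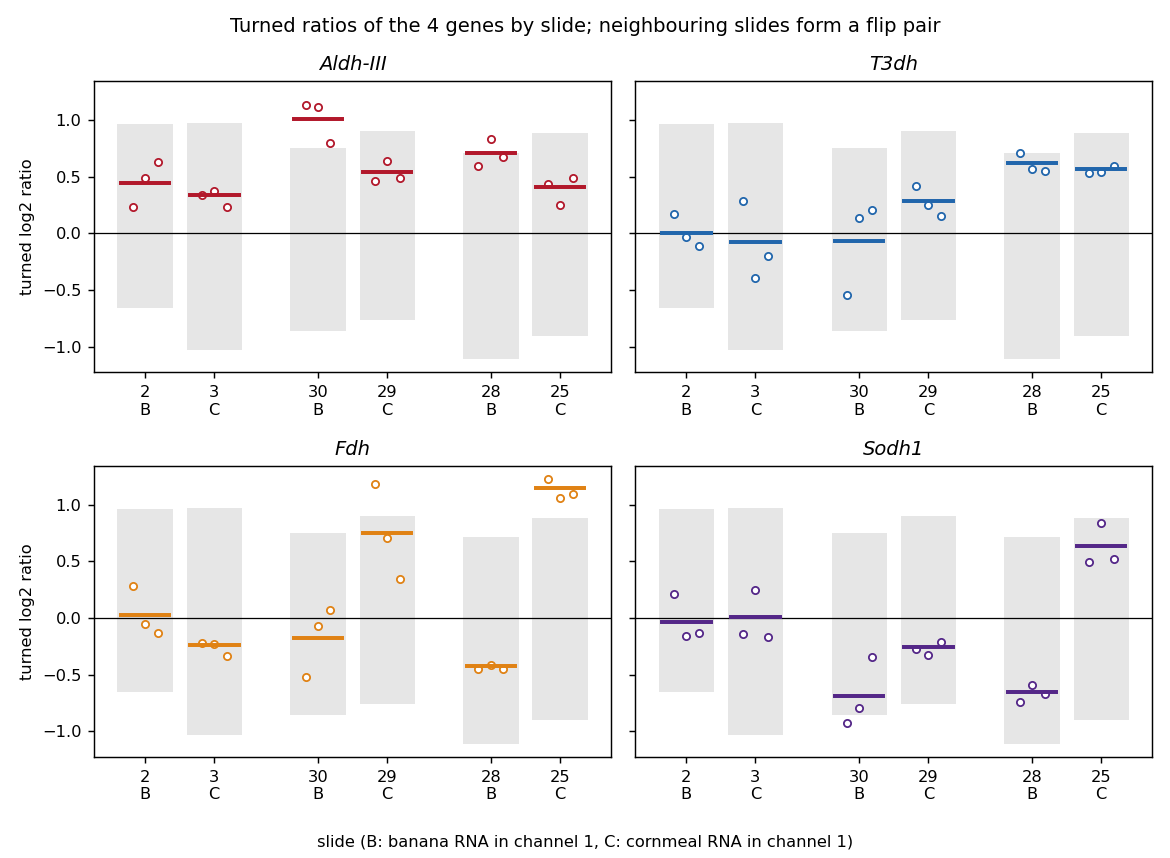
Turned log2 ratio (vertical axis) of each gene on the 6 slides (horizontal axis), with the slides of a flip pair side by side. Bars are slide values, open circles the 3 spot sets centred on their column median, and grey boxes the 5th to 95th percentile of all rows on that slide. Aldh-III lies above 0 on all 6 slides, from 0.34 to 1.01, while Fdh and Sodh1 change sign between the slides of pair 3.

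Beside the spread of all rows, the mean ratios of the 4 genes lay at percentile 93.7 (Aldh-III), 71 (T3dh), 64 (Fdh) and 61 (Sodh1) in size. On single slides, the 5th percentile of all rows lay between -1.11 (slide 28) and -0.66 (slide 2), and the 95th between 0.71 (slide 28) and 0.97 (slide 3). All 6 slide values of T3dh and Sodh1 lay inside these bounds, 5 of Fdh and 4 of Aldh-III. For pair ratios the bounds were -0.63 and 0.75 in pair 1, -0.68 and 0.70 in pair 2 and -0.75 and 0.56 in pair 3. All 3 pair ratios of Fdh and Sodh1 lay inside, 2 of T3dh and 1 of Aldh-III. The SD between the spot sets of a slide averaged 0.134 for Aldh-III, 0.195 for T3dh, 0.186 for Fdh and 0.178 for Sodh1, against a median of 0.155 over 3911 probes. Repeat spots of the 4 genes thus varied to a degree common among the probes.

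**Figure D2:**
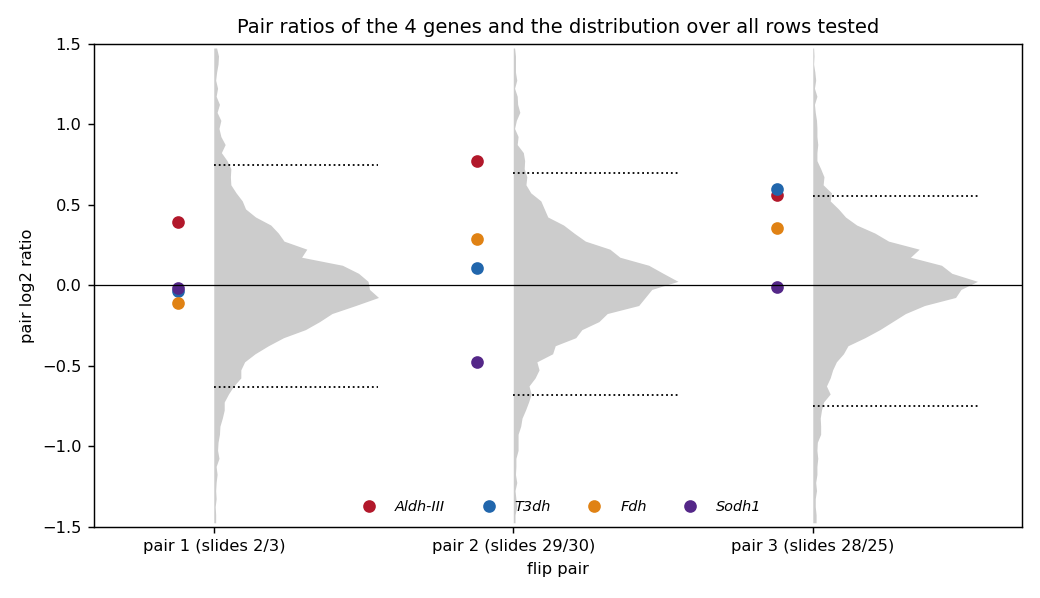
Log2 ratio of each flip pair (vertical axis) for the 4 genes (coloured points), beside the distribution over all 4723 rows in that pair (grey) with its 5th and 95th percentiles (dotted lines). Between 84 and 102 rows per pair lie beyond the axis limits of 1.5. Aldh-III lies above the 95th percentile in pairs 2 and 3, and T3dh in pair 3.

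By mean ratio the order was Aldh-III, T3dh, Fdh and Sodh1. Aldh-III was first in pairs 1 and 2 and T3dh in pair 3, and Sodh1 was last in pairs 2 and 3. Aldh-III exceeded Fdh by 0.40 ± 0.168 and Sodh1 by 0.74 ± 0.448 (SD, n = 3), in each of the 3 pairs. It exceeded T3dh by 0.35 ± 0.36, in 2 of 3 pairs. The neighbours T3dh and Fdh differed by 0.042 ± 0.213, and Fdh and Sodh1 by 0.35 ± 0.429 (SD, n = 3), so that neither step was larger than its spread between pairs. An exact two-sided sign-flip permutation test over the 3 pairs cannot give a p below 0.25. The 6 comparisons between genes gave exact p of 0.25 to 0.75, or 0.6 to 0.75 after Benjamini-Hochberg adjustment over the 6.

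The channel component is the part of a ratio that does not turn with the dye flip, and it was computed from the slides before turning. Fdh and Sodh1 had negative channel components that were larger in size than their diet ratios, whereas for Aldh-III and T3dh the diet ratio was the larger. Over all rows the channel component was the larger in 50.7%, so 2 of 4 is the share found among all rows. In Fdh the component was 0.13 in pair 1, -0.46 in pair 2 and -0.79 in pair 3, with a mean of -0.37 ± 0.464 (SD, n = 3). In Sodh1 it was -0.020, -0.22 and -0.65, with a mean of -0.29 ± 0.32. Means were 0.15 ± 0.0937 for Aldh-III and -0.036 ± 0.122 for T3dh (SD, n = 3 each). The median size over all rows was 0.132, and Fdh lay at percentile 89.8 and Sodh1 at percentile 83.1. Sodh1 had a negative component in all 3 pairs, as had 22.6% of all rows.

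No channel component of the 4 genes passed the limma threshold, with adjusted p of 0.543 for Sodh1, 0.552 for Fdh, 0.615 for Aldh-III and 0.91 for T3dh. At an unadjusted p under 0.05, 0 of the 4 were called (limma), where 9.19% of all rows were called and 0% after adjustment. Averaging the slides of a pair removes an additive component of this kind from the diet ratio. The gap between the turned slides of a pair is the size of the same component on another scale, and no separate evidence. In pair 3 this gap was 1.57 in Fdh and 1.29 in Sodh1, and both pair ratios are means of values of opposite sign. In Aldh-III the slides of a pair were 0.0991, 0.474 and 0.302 apart in pairs 1, 2 and 3, against medians of 0.329, 0.327 and 0.488 over all rows.

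**Figure D3:**
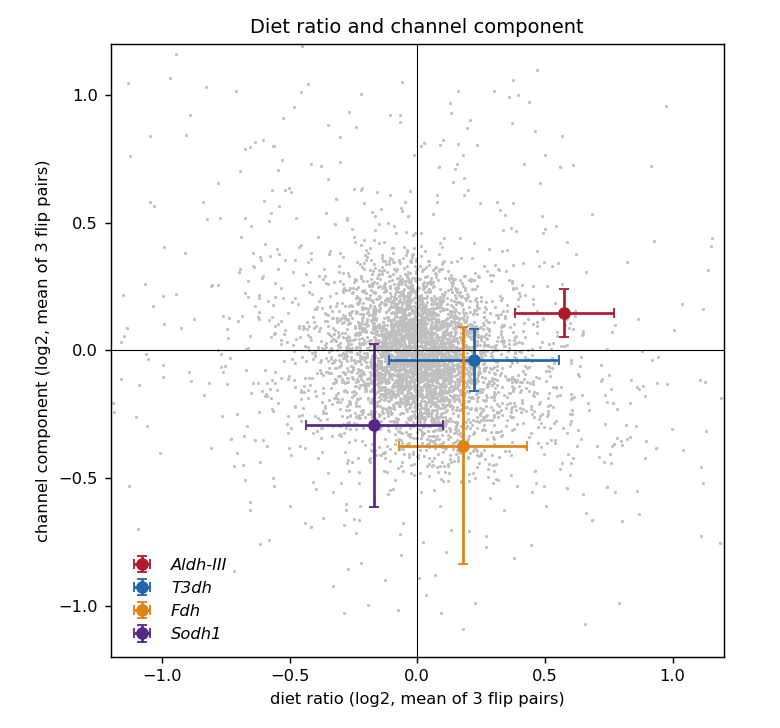
Diet ratio (horizontal axis) against channel component (vertical axis), both as log2 means of 3 flip pairs, for all rows (grey) and the 4 genes (points with SD of the pairs as bars). 68 rows lie beyond the axis limits of 1.2. Aldh-III lies furthest along the diet axis, at 0.58, and Fdh and Sodh1 lie lower on the channel axis, at -0.37 and -0.29.

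The 3 flip pairs were also compared with each other, against the noise between the slides of a pair. With a limma F test, 0 of the 4 genes passed for a difference between pairs after adjustment (adjusted p of 0.688 for T3dh, 0.851 for Aldh-III, 0.871 for Sodh1 and 0.951 for Fdh), where 0.106% of all rows did. At an unadjusted p under 0.05, 0 of the 4 were called and 9.15% of all rows. The smallest unadjusted p was that of T3dh, at 0.123 (limma F test).

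Related genes of alcohol, aldehyde and polyol metabolism were taken from a list of 30 genes, of which 13 had a single-symbol probe with values on all slides and were tested. Of these 13, 0 passed the adjusted limma threshold, and 1 with a positive and 0 with a negative ratio had an unadjusted p under 0.05, where the shares of all rows were 4.40% and 3.64%. Mean ratios were positive for 6 and negative for 7, as 50.1% of all rows were positive, with a median of -0.0093 against 0.00031 for all rows. The alcohol dehydrogenase gene Adh and its neighbour Adhr share a probe that lists both genes, so no value is given for either. CG4836, a predicted sorbitol dehydrogenase, lacked values on some slides, and the other 14 genes, among them Aldh and Sodh2, were not analysed here.

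The 4 tested genes of the alcohol and aldehyde list all encode aldehyde dehydrogenases of amino acid or neurotransmitter breakdown, and their median was 0.23. Ssadh, the succinic semialdehyde dehydrogenase of GABA breakdown, had turned pair ratios of 0.35, 0.47 and 0.50 and a mean of 0.44 ± 0.0811 (SD, n = 3), positive on 6 of 6 slides (limma, unadjusted p = 0.0104, adjusted p = 0.461). CG17896, a predicted methylmalonate-semialdehyde dehydrogenase, had 0.075, 0.42 and 0.74 in the pairs and a mean of 0.41 ± 0.332, positive on 5 of 6 slides (limma adjusted p = 0.64). Aldh7A1, whose human counterpart acts in lysine breakdown, had 0.055 ± 0.4, and P5CDh1, of proline breakdown, -0.083 ± 0.481 (SD, n = 3 each). Both changed sign between pairs. Of the 4 genes of this list, 2 were thus positive in all 3 pairs, beside 15.3% of all rows. Over all 13 related genes, 3 were positive and 3 negative in all 3 pairs, beside 15.3% and 15.2% of all rows.

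Of the 4 polyol and aldo-keto genes tested, 2 were negative in all 3 pairs, beside 15.2% of all rows. CG3534, a predicted xylulokinase, had -0.24 ± 0.052, with -0.22, -0.19 and -0.30 in the pairs, and CG10863, a predicted aldo-keto reductase, had -0.28 ± 0.295 (SD, n = 3 each). The pair ratios of CG10863 were -0.59, -0.0093 and -0.23, so that pair 2 lay near 0. The aldo-keto reductase genes CG2767 and CG9436 had 0.093 ± 0.212 and 0.054 ± 0.161. Their median was -0.092, and the smallest adjusted limma p among the 4 was 0.642.

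Among 5 further genes of downstream steps and other oxidations, 1 mean was positive and 4 were negative, with a median of -0.095. CG4390, a predicted S-formylglutathione hydrolase that would act on the product of Fdh, had -0.095 ± 0.147 (SD, n = 3), where Fdh had 0.18. The glycerol-3-phosphate dehydrogenase gene Gpdh1 had -0.28 ± 0.463, with -0.74 in pair 1 and 0.19 in pair 2. The xanthine dehydrogenase gene ry had 0.13 ± 0.13, and the aldehyde oxidase genes AOX1 and AOX3 had -0.0093 ± 0.375 and -0.14 ± 0.157 (SD, n = 3 each). The smallest adjusted limma p among these 5 was 0.784.

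**Figure D4:**
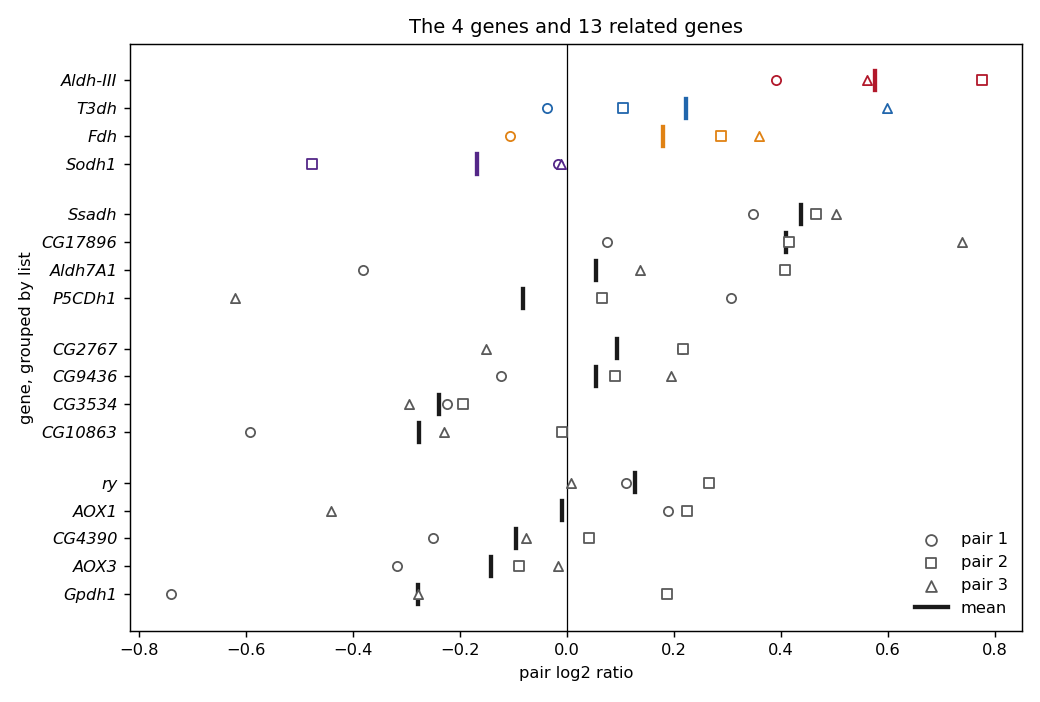
Log2 ratio in each flip pair (open symbols) and mean (bar) for the 4 genes and the 13 related genes tested, grouped by list, with 0 marked by the vertical line. Aldh-III, Ssadh, CG17896 and ry have all 3 pairs above 0, and Sodh1, CG3534, CG10863 and AOX3 have all 3 below.

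Because the labels name no tissue, markers of several tissues were read beside these ratios. The 4 muscle genes tested of 11 listed were positive in all 3 pairs, beside 15.3% of all rows. They had medians of 0.62, 0.32 and 0.58 in pairs 1, 2 and 3, and mean ratios from 0.39 to 0.65. Aldh-III was also positive in all 3 pairs (0.39, 0.78 and 0.56), but it was highest in pair 2, where the muscle medians were lowest. The marker lists were chosen with earlier results of these data known. The part of the muscle genes in the ratio of Aldh-III was not tested. The 4 gut genes tested of 8 listed went both ways, from -0.88 for the protease gene yip7 to 1.14 for the lipase gene mag. None of the 6 fat body markers was tested. Yp2, the 1 yolk gene tested, had 0.057, and the 2 male genes tested, ocn and Acp36DE, had -0.27 and 0.16. In total RNA a different number of cells of a type and a different level per cell cannot be told apart.

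The genes with the most similar course over the 6 turned slides were taken by Pearson correlation among 4143 other named genes, as a description of 6 points, of which the slides of a pair belong to 1 dye-flip experiment. They were fs(1)Ya (r = 0.97) and porin (r = 0.968) for Aldh-III, ND-B17 (r = 0.994) and Tsr1 (r = 0.994) for T3dh, Eato (r = 0.998) and Noa36 (r = 0.994) for Fdh, and Wdfy2 (r = 0.994) and BCL7-like (r = 0.988) for Sodh1. The measure ignores level and size. The mean ratio of fs(1)Ya was -0.15 and that of porin 0.12, where Aldh-III had 0.58. ND-B17, with pair ratios of -0.13, 0.095 and 0.71 and a mean of 0.22, was close to T3dh in size as well. Among the 4 genes themselves, r was 0.722 for Fdh and Sodh1 and -0.787 for Aldh-III and Sodh1. The other comparisons gave r from -0.385 (Aldh-III and Fdh) to 0.392 (T3dh and Fdh). Turned slide values still hold the channel component, which in pair 3 was -0.79 for Fdh and -0.65 for Sodh1. The part of this component in r was not tested. The pair ratios, in which it cancels, were -0.11, 0.29 and 0.36 for Fdh and -0.016, -0.48 and -0.011 for Sodh1.

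**Figure D5:**
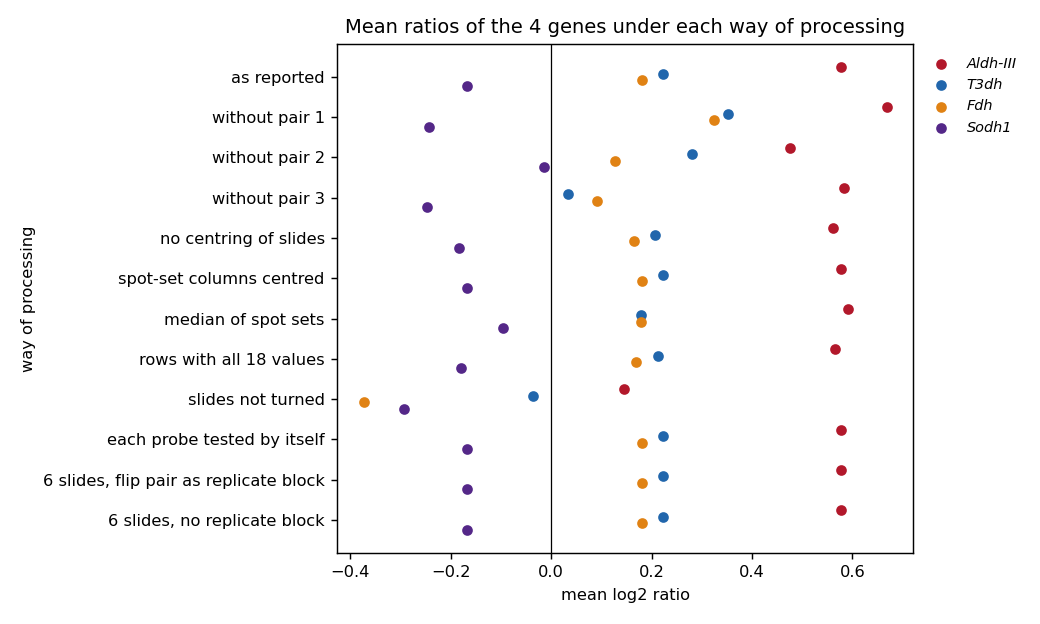
Mean log2 ratio (horizontal axis) of the 4 genes as reported and under 11 other ways of processing (vertical axis). Aldh-III lies between 0.48 and 0.67 in all of them but the 1 without turning of slides, where it lies at 0.15 and Fdh lies at -0.37.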

How the data were processed

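The authors' deposited values were log ratios of 5620 probes in 18 columns, with 4860 to 5149 values per column, and 0 of its columns were left out. Its unit was taken as log2, as the authors' values from -16.02 to 13.21 exceed 11.09, the natural log of the highest 16-bit signal. However, -16.02 is also slightly past the log2 of that signal, 16, and the base is not settled. Scanning, background correction, normalisation, dyes and genome build are not given in the sources used here, so no coordinates are given and signal over background is unknown.

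Each slide's 3 spot sets were averaged, slides were centred on their median, probes of 1 gene averaged, slides with cornmeal RNA in channel 1 turned, and the slides of a flip pair, named in the labels, averaged. The 3 pair ratios of 4723 rows were tested against 0 in limma 3.58.1 (lmFit, eBayes; R 4.3.3), two-sided, with Benjamini-Hochberg adjustment over all rows and a threshold of 0.05. The channel component was tested likewise on unturned slides, and pair differences with a limma F test on 6 slides with terms for pair and orientation. The unturned slides of a pair correlated at -0.015, -0.32 and -0.031. A ratio that turns with the dye flip makes this correlation negative, and a channel component makes it positive. It was near 0 in pairs 1 and 3, so there the part that turned was hardly larger than the part that did not. The pair ratios of pairs 1 and 3 carry this limit. The procedure was tested on simulated data. The 4 genes, the related genes and the marker lists were chosen with earlier results of these data known. Named genes were the 4, every related gene tested, and the 2 most correlated genes per member. Plots used matplotlib 3.10.9 (Python 3.11.15).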

Additional observations from a re-analysis of the deposited data

How the results depend on the processing

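Under 11 other ways of processing, 0 of the 4 genes passed the adjusted limma threshold for the diet ratio, and Aldh-III was positive and Sodh1 negative in all 11. Without turning the slides, as if the authors had turned them already, T3dh took the opposite sign at -0.036 and Fdh at -0.37, and Aldh-III stood at 0.15. The values of this setting are the channel components given above, so their signs are no further check of the turned ratios. Leaving out 1 pair gave 0.48 to 0.67 for Aldh-III, 0.034 to 0.35 for T3dh, 0.091 to 0.32 for Fdh and -0.25 to -0.014 for Sodh1, and -0.075 to 0.034 for the channel component of T3dh. Aldh-III kept an unadjusted p under 0.05 in 9 of 11 settings, without pair 2 (limma unadjusted p = 0.0548) and without turning (limma unadjusted p = 0.21) being the exceptions. The settings are not independent checks. With 1 probe per gene, testing each probe by itself could not change a mean ratio, nor could fitting over 6 slides.

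Fitted over 6 slides, Aldh-III had a limma adjusted p of 0.0939 with the flip pair as a replicate block and 0.127 without a block. Tested on the 3 pair ratios, its limma adjusted p was 0.459. The blocked fit estimated a correlation of -0.089 within pairs. A negative value lowers the standard error of a mean ratio, so the block made this fit less strict, and its lower p is not stronger evidence. The block changed no call for the 4 genes, and over all rows 20 passed with it and 1 without, against 0 for pairs. The unadjusted count over all rows was 380, and 574 without pair 1 and 213 without pair 2. For the channel component 16 rows passed without pair 2 and 2 without centring. For pair differences 5 rows passed, 0 without pair 1 or pair 3, 49 without pair 2, 12 without centring, 26 with the median of spots and 108 among rows with 18 values. Of the 13 related genes 0 to 3 had an unadjusted p under 0.05. If the values were natural logarithms the difference of Aldh-III would be 1.78-fold, and if log10, 3.77-fold. The number of arrays limits the precision.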

Other observations

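Position along the chromosome was read from the Release 6 gene table. Of the 16 nearest protein-coding genes, 4 for each of the genes studied, 7 were tested. The genes on either side of Aldh-III, p47 and wech, had mean log2 ratios of -0.14 ± 0.156 and -0.032 ± 0.23 (SD, n = 3 each), beside 0.58 for Aldh-III. Of the genes 2 steps away, CG11127 had 0.34 ± 1.02, with 0.15, 1.44 and -0.57 in the pairs, and Coop had 0.12 ± 0.142. CG1979, next to Sodh1, had 0.38 ± 0.131, positive in all 3 pairs, where Sodh1 had -0.17. Antp, 2 genes from Sodh1, had 0.31 ± 0.199 and was also positive in all 3 pairs. Tsp86D, next to Fdh, had -0.048 ± 0.146 (SD, n = 3). Sodh2 lies 2 genes from Fdh and was not analysed here, and none of the 4 neighbours of T3dh was tested.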
